A study of Mus musculus with 8 samples.

Results

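Apoe, Lpl, Pnpla2, Lipe, Mgll, Plin2, Plin3, Pparg, Dgat1 and Dgat2 are genes of lipoproteins, lipases, lipid droplets and triglyceride synthesis. They were found by matching the Ensembl gene identifiers of the table to these symbols, and make up 10 of its 35596 genes. Polyadenylated RNA was sequenced from islets, the clusters of hormone-secreting cells of the pancreas, which were freed by collagenase and picked by hand from male C57BL/6J mice, an inbred strain. The weight-cycled group, 4 libraries, had received a 60% high-fat diet (HFD) over 9 weeks, a 10% low-fat diet (LFD) over another 9 weeks, and HFD once more over a closing 9 weeks. The obese group, also 4 libraries, had first received the LFD over 9 weeks and then HFD without a break over 18 weeks. Both groups thus ended on HFD, and the comparison addresses the order of the diets. The last unbroken HFD period differed as well, 9 weeks in weight-cycled and 18 weeks in obese mice, and this cannot be told apart from the loss and regain of weight. The labels do not say whether a library came from 1 animal or a pool, and p-values speak only of library-to-library spread, possibly technical.

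Triglyceride is made from diglyceride by the enzymes of Dgat1 and Dgat2 and is kept in lipid droplets, which perilipins such as Plin2 and Plin3 coat. It is taken apart again in steps by adipose triglyceride lipase (Pnpla2), hormone-sensitive lipase (Lipe) and monoglyceride lipase (Mgll). Outside the cell, lipoprotein lipase (Lpl) frees fatty acids from circulating lipoproteins, and apolipoprotein E (Apoe) lets lipoproteins bind receptors on cells. Pparg encodes a nuclear receptor that senses fatty acids. In beta cells, fatty acids and products of lipolysis are known to amplify insulin secretion.

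The values were TPM (transcripts scaled to a fixed total per library), which adjust each gene for transcript length and for the library's total. Levels can therefore be set side by side between genes, but depth is unknown, and no counting interval can be given. Weight-cycled replicate 1 stood apart from its group. On the first principal component (66.8% of the variance) it scored -7.98, within the obese range of -23.3 to -5.03, while the other weight-cycled libraries scored 13.8 to 30.6. Its deviations from the gene means also went with transcript length (Spearman's rho 0.345 across genes, which are not independent) as in the obese libraries (0.184 to 0.375), against -0.400 to -0.283 in the other weight-cycled ones. The beta-cell list, led by Ins1, Ins2 and Iapp, summed to between 784923 and 812606 TPM in weight-cycled and between 789616 and 803454 TPM in obese libraries, which fits the islet label. Of these 8 markers, 5 were called lower in weight-cycled islets by the test used below, where 23.9% of all tested genes were. After median-of-ratios scaling 1 was, and after quantile scaling or length correction 2 were.

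Apoe, Lpl, Pnpla2 and Pparg were lower in weight-cycled islets. Mgll, Plin2 and Dgat1 did not pass the test, and Lipe, Plin3 and Dgat2 lay below the level at which genes were tested, a mean of 1 TPM over the 8 libraries. In bulk RNA, fewer cells of a type and less RNA per cell cannot be told apart. None of the 7 tested genes was higher, and 4 of them had an unadjusted p under 0.05 in limma, a linear model fitted to log2(TPM + 1) over all 8127 genes that reached that level. A gene was called at a Benjamini-Hochberg adjusted p under 0.05. These 4 calls stand against a background in which 23.9% of all tested genes were called lower and 1.21% higher. The median log2 fold change, weight-cycled minus obese on the log2(TPM + 1) scale, was -0.26 over all tested genes and -0.41 over these 7. Every weight-cycled library lay below every obese one for 3 of these genes and for 21.1% of all tested genes, and above for none of these genes and 1.3% of all. Pparg averaged under 1 TPM in weight-cycled islets and reached the tested level through the obese libraries, so that the count over the tested genes is a description.

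**Figure D1:**
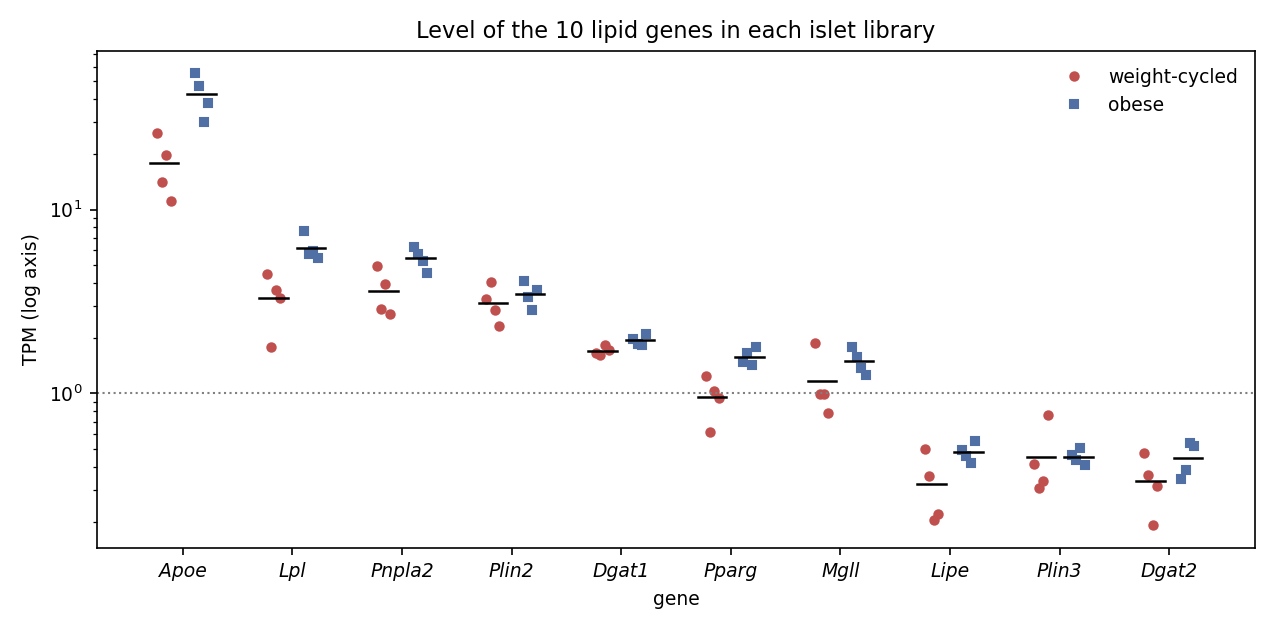
Level of the 10 genes in each library, in TPM on a log axis, with weight-cycled libraries as circles, obese libraries as squares and group means as bars. The groups do not overlap for Apoe, Lpl and Pparg, and Lipe, Plin3 and Dgat2 lie under the dotted line at 1 TPM.

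Apoe (ENSMUSG00000002985.16, GRCm38 chromosome 7, 19696109 to 19699188, minus strand) had the highest level of the 10. It was at 26.2, 14.1, 19.9 and 11.2 TPM in weight-cycled replicates 1 to 4, against 55.1, 47.3, 30.1 and 37.8 TPM in obese replicates 1 to 4. Every weight-cycled library lay below every obese one, with weight-cycled replicate 1 and obese replicate 3 nearest to each other. Means were 17.9 ± 6.63 TPM in weight-cycled and 42.6 ± 10.9 TPM in obese islets (SD, n = 4 each), a ratio of 0.420. The log2 fold change was -1.24 (SE 0.237, 95% interval -1.76 to -0.72, limma adjusted p = 0.0265), or -0.98 relative to the median of all tested genes. Apoe made up 46.2% to 58.1% of the summed TPM of the 10 genes in weight-cycled libraries and 60.0% to 69.2% in obese ones, ranges that did not overlap. Macrophages are a known source of Apoe. The summed macrophage markers, at 43.0 to 53.9 TPM in weight-cycled and 56.4 to 71.3 TPM in obese libraries, moved the same way. C1qa, the largest part of that sum, did not pass (limma adjusted p = 0.157). Of the beta-cell markers, Slc2a2 and Mafa were at -1.10, Nkx6-1 at -0.64, Ucn3 at -0.63 and Pdx1 at -0.61 (limma adjusted p = 0.0165 to 0.0390). Ins1, Ins2 and Iapp did not pass. The part of either cell type in the result was not tested. The neighbours of Apoe in the apolipoprotein cluster of chromosome 7, Apoc1 and Apoc2, stood at or below 0.145 and 0.184 TPM in every library.

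Lpl (ENSMUSG00000015568.16, chromosome 8, 68880491 to 68907448, plus strand) came next among the lower genes. Weight-cycled replicates 1 to 4 held 4.47, 1.80, 3.67 and 3.29 TPM of Lpl, against 7.67, 5.72, 5.92 and 5.44 TPM in obese replicates 1 to 4. The groups did not overlap, with weight-cycled replicate 2 the lowest and obese replicate 1 the highest. Means of 3.31 ± 1.12 TPM in weight-cycled and 6.19 ± 1.01 TPM in obese islets (SD, n = 4 each) gave a ratio of 0.535, and a log2 fold change of -0.77 (SE 0.185, 95% interval -1.17 to -0.37, limma adjusted p = 0.0324). Relative to the median of all tested genes it lay at -0.51. Gpihbp1, which encodes the endothelial anchor of lipoprotein lipase, was at 5.47 ± 0.600 TPM in weight-cycled and 6.48 ± 0.723 TPM in obese islets and did not pass (log2 fold change -0.21, limma adjusted p = 0.144). The ratio of Lpl to Gpihbp1, which no single scaling factor per library can move, was 0.317 to 0.934 in weight-cycled and 0.815 to 1.38 in obese libraries, overlapping ranges. Gpihbp1 was chosen after its values were seen.

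Pnpla2 (ENSMUSG00000025509.15, chromosome 7, 141455198 to 141460743, plus strand), the lipase of the first step of triglyceride breakdown, was at 4.95, 2.88, 3.93 and 2.72 TPM in weight-cycled replicates 1 to 4, against 6.24, 5.72, 5.26 and 4.51 TPM in obese replicates 1 to 4. Weight-cycled replicate 1 lay above obese replicate 4, and the other 3 weight-cycled libraries lay below every obese one. Means were 3.62 ± 1.04 TPM in weight-cycled and 5.43 ± 0.734 TPM in obese islets (SD, n = 4 each), and the log2 fold change was -0.50 (SE 0.155, 95% interval -0.84 to -0.16, limma adjusted p = 0.0434). Relative to the median of all tested genes Pnpla2 lay at -0.24. Mgll (ENSMUSG00000033174.17, chromosome 6, 88724412 to 88828360, plus strand), the lipase of the last step, was at 1.88, 0.988, 0.999 and 0.785 TPM in weight-cycled and at 1.79, 1.57, 1.38 and 1.26 TPM in obese replicates 1 to 4. Weight-cycled replicate 1 held the highest value of the 8 and the other 3 of its group the lowest. The difference did not pass with all libraries (log2 fold change -0.23, 95% interval -0.55 to 0.10, limma adjusted p = 0.225) and did without weight-cycled replicate 1 (-0.37, limma adjusted p = 0.0115). In that fit 54.4% of all tested genes were called lower and their median was -0.32. Lipe (ENSMUSG00000003123.15, chromosome 7, 25379527 to 25398710, minus strand), the lipase between these steps, was listed at 0.498, 0.357, 0.205 and 0.221 TPM in weight-cycled and at 0.491, 0.455, 0.417 and 0.553 TPM in obese replicates 1 to 4. Here too weight-cycled replicate 1 lay among the obese values and the other 3 below them.

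Pparg (ENSMUSG00000000440.12, chromosome 6, 115360951 to 115490399, plus strand) was at 1.24, 0.614, 1.03 and 0.942 TPM in weight-cycled replicates 1 to 4, against 1.49, 1.65, 1.43 and 1.78 TPM in obese replicates 1 to 4. The groups did not overlap, and the obese values lay close together. Means were 0.957 ± 0.261 TPM in weight-cycled and 1.59 ± 0.157 TPM in obese islets (SD, n = 4 each), a ratio of 0.602. On the log2(TPM + 1) scale, which understates changes of low genes, the fold change was -0.41 (SE 0.120, 95% interval -0.67 to -0.15, limma adjusted p = 0.0391). With a pseudocount of 0.1 in place of 1 it was -0.71. Relative to the median of all tested genes, the fold change with a pseudocount of 1 was -0.15.

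Plin2 (ENSMUSG00000028494.12, chromosome 4, 86648386 to 86670060, minus strand), the droplet coat protein gene with the higher level of the pair, was at 3.28, 4.02, 2.83 and 2.33 TPM in weight-cycled and at 4.07, 3.34, 2.83 and 3.65 TPM in obese replicates 1 to 4. The groups overlapped over most of their range, with a log2 fold change of -0.13 (95% interval -0.44 to 0.18, limma adjusted p = 0.463). Dgat1 (ENSMUSG00000022555.12, chromosome 15, 76502015 to 76511953, minus strand) spread little, at 1.66, 1.62, 1.83 and 1.72 TPM in weight-cycled and 1.99, 1.86, 1.83 and 2.11 TPM in obese replicates 1 to 4. Its groups touched at replicate 3 of each, and the difference did not pass (log2 fold change -0.12, 95% interval -0.33 to 0.09, limma adjusted p = 0.309). Plin3 (ENSMUSG00000024197.10, chromosome 17, 56277476 to 56292873, minus strand) was listed at 0.413, 0.305, 0.333 and 0.763 TPM in weight-cycled and 0.462, 0.434, 0.508 and 0.406 TPM in obese replicates 1 to 4, so that weight-cycled replicate 4 stood above all others. Dgat2 (ENSMUSG00000030747.5, chromosome 7, 99153658 to 99182719, minus strand) was listed at 0.475, 0.358, 0.192 and 0.314 TPM in weight-cycled and 0.341, 0.385, 0.535 and 0.515 TPM in obese replicates 1 to 4, with overlapping groups. In a fit down to a mean of 0.1 TPM, chosen after the values were seen, none of the low genes passed in limma. Lipe was at -0.17 (95% interval -0.35 to 0.01, adjusted p = 0.133), Dgat2 at -0.12 (-0.29 to 0.06, adjusted p = 0.279) and Plin3 at -0.01 (-0.22 to 0.20, adjusted p = 0.945). In that fit 5.83% of 12875 genes were called lower and 0.621% higher, among them Apoe and Lpl but not Pnpla2 (limma adjusted p = 0.0578) or Pparg (limma adjusted p = 0.0526).

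The order of the levels per length was much alike in the groups. In weight-cycled islets Apoe stood first and apart, followed by Pnpla2, Lpl and Plin2, whose ranges overlapped, then by Dgat1, Mgll, Pparg, Plin3, Dgat2 and Lipe, of which each overlapped the next. In obese islets the order was Apoe, Lpl, Pnpla2, Plin2, Dgat1, Pparg, Mgll, Lipe, Plin3 and Dgat2. There the neighbours that overlapped were Lpl and Pnpla2, Pparg and Mgll, and the last 3. Lpl stood above Pnpla2 in 4 of 4 obese libraries, though in obese replicate 2 both were 5.72 TPM to the digits given. Pnpla2 stood above Lpl in 3 of 4 weight-cycled libraries. Median coding transcripts are 4115 bases for Lpl and 1392 bases for Pnpla2, and this order was not corrected for the length trend of each library. Without Apoe, the other 9 genes summed to between 12.9 and 18.9 TPM in weight-cycled and between 20.1 and 24.5 TPM in obese libraries.

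Because most tested genes were lower in weight-cycled islets (85.5% had a fold change below 0), ranks and ratios were set beside the fold changes. By rank among the 8127 tested genes, where 1 is the highest TPM, Apoe stood at 901 to 1784 in weight-cycled and at 524 to 839 in obese libraries. Lpl stood at 3905 to 5428 in weight-cycled and at 2884 to 3549 in obese libraries. For both, every weight-cycled library ranked below every obese one, as for 8.01% of tested genes. The ranks of Pnpla2 were 3613 to 4497 in weight-cycled and 3357 to 3740 in obese libraries, which overlapped. Those of Pparg were 7357 to 7838 in weight-cycled and 6379 to 7531 in obese libraries, which overlapped as well. The ratio of Plin2 to Pnpla2, droplet coat to lipase, was 0.663 to 1.40 in weight-cycled and 0.537 to 0.809 in obese libraries. The ratio of Dgat1 to Pnpla2, synthesis to breakdown, was 0.335 to 0.632 in weight-cycled and 0.319 to 0.467 in obese libraries. These ratios were chosen after the values were seen and were not tested.

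Apoe was also called lower after each of 3 rescalings, the other 6 tested genes after none of them. Median-of-ratios scaling, which moves the median of all tested genes to -0.01, gave Apoe a log2 fold change of -0.92 (limma adjusted p = 0.0469), where 0.566% of tested genes were called lower and 1.24% higher. Quantile scaling gave it -1.06 (limma adjusted p = 0.0396), with 1.53% of genes called lower and 2.13% higher, and correction of each library for its length trend -1.10 (limma adjusted p = 0.0383), with 1.53% lower and 1.78% higher. Lpl, Pnpla2 and Pparg kept their direction, at -0.51, -0.23 and -0.24 after median-of-ratios scaling, with limma adjusted p = 0.0757, 0.150 and 0.137. After quantile scaling they were at -0.51, -0.22 and -0.14 (limma adjusted p = 0.0680, 0.162 and 0.312). Length correction gave -0.42, -0.32 and -0.17 (limma adjusted p = 0.0826, 0.122 and 0.239). Plin2 and Dgat1 turned to 0.13 and 0.09 under that scaling, and Mgll, at -0.05 there, to 0.04 after quantile scaling and 0.05 after length correction.

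**Figure D2:**
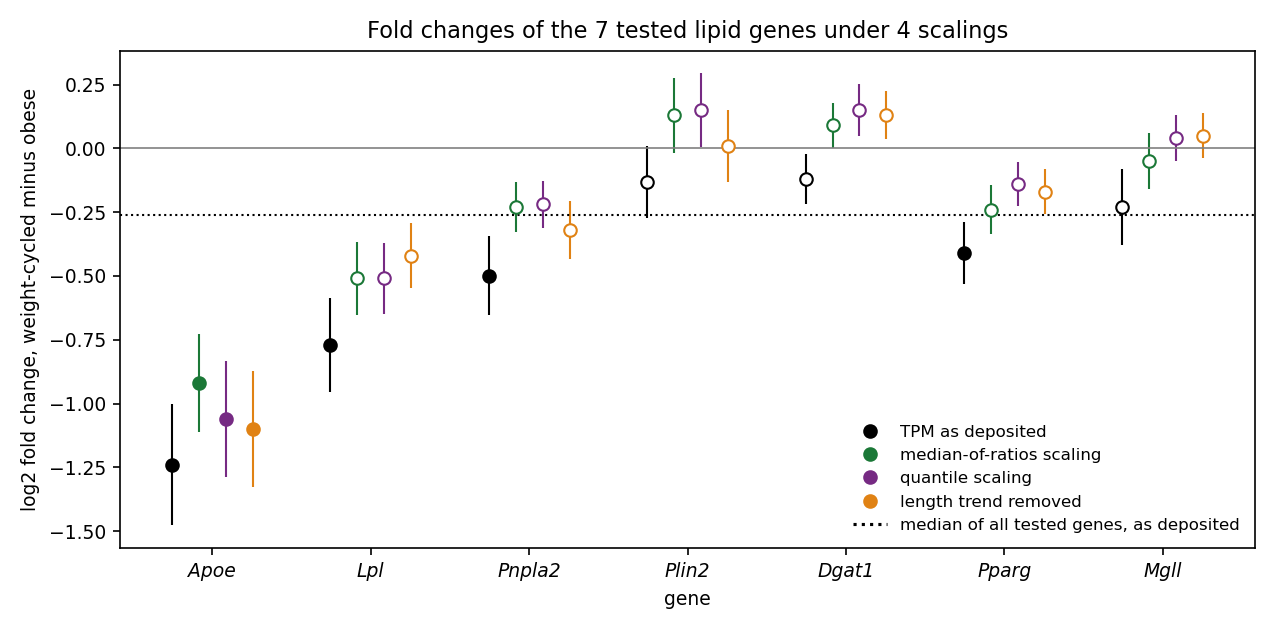
Log2 fold change, weight-cycled minus obese, of the 7 tested genes under 4 scalings, with bars of 1 SE. Filled points passed limma's adjusted p of 0.05, and the dotted line marks the median of all tested genes at -0.26. Apoe is filled under every scaling, while Lpl, Pnpla2 and Pparg are filled for TPM as deposited.

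The calls depended on single libraries. Without weight-cycled replicate 1, the library that stood apart, 5 of the 7 were lower, Mgll being added, against 54.4% of all tested genes (3.35% were higher), and Apoe, Lpl, Pnpla2 and Pparg were at -1.44, -0.90, -0.63 and -0.48 (limma adjusted p = 0.000705, 0.00126, 0.00200 and 0.00375). Apoe did not pass without weight-cycled replicate 2 or 4 (limma adjusted p = 0.0788 and 0.0733) or without obese replicate 1 or 2 (0.108 and 0.0767). Lpl and Pnpla2 each passed in 2 of the 8 fits, those lacking weight-cycled replicate 1 and obese replicate 4, with limma adjusted p = 0.0633 to 0.109 and 0.0762 to 0.126 in the rest. Pparg passed without weight-cycled replicate 1 only, with limma adjusted p = 0.0583 to 0.109 without any other. Leaving out any library other than these 2 left 0 to 49 genes called lower over all tested genes. The log2 fold change of each of these 4 genes was below 0 in all 8 of these fits. For Apoe, Lpl and Pparg it could not be otherwise, since their groups did not overlap. With all libraries, 85.5% of all tested genes were below 0.

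RefSeq promoter windows on GRCm38.p6, from 250 bases before to 50 bases into the transcript, were found for 7 of the 10 genes. The windows below are shown because they belong to the lower genes in that table and, for contrast, to Plin2, which did not pass, each at its first listed start. They run in the direction of the gene, and capitals mark the GC box GGGCGG, the E-box CACGTG and the nuclear receptor half-site AGGTCA, searched on both strands. They are chr7:19699139-19699438 (minus strand) for Apoe, chr7:141454938-141455237 (plus strand) for Pnpla2, chr6:115360894-115361193 (plus strand) for Pparg and chr4:86670010-86670309 (minus strand) for Plin2.
Apoe: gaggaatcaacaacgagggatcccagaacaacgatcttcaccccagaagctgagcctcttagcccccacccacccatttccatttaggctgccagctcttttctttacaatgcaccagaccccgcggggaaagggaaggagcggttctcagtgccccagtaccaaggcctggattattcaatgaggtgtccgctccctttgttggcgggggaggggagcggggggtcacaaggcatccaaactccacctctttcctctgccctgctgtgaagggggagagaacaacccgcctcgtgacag
Pnpla2: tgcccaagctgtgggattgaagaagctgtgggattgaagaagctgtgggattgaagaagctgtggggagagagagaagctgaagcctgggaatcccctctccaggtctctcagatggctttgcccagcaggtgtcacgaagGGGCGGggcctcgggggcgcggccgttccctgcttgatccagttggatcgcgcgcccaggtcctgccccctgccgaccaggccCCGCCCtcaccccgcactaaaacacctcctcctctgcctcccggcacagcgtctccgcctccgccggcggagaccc
Pparg: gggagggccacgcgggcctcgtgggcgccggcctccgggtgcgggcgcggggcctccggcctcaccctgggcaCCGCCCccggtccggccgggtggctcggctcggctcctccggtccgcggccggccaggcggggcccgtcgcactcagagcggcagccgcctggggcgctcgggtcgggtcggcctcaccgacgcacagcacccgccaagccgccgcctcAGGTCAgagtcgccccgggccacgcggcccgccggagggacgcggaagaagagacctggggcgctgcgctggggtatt
Plin2: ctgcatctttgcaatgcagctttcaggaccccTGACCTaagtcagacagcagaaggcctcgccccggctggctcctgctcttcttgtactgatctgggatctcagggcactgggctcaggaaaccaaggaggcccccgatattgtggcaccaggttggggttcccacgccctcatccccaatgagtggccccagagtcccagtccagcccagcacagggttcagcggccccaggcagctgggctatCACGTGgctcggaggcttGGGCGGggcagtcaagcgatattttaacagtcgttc
The Apoe window holds none of these motifs, nor the TATA box TATAAA, which a second Apoe window, at an inner start, holds on either strand. The Pnpla2 window holds a GC box whose first base lies 109 bases before the start and another, on the opposite strand, at 26 bases. The Pparg window holds a GC box at 177 bases and a half-site at 28 bases before the start. The Plin2 window holds a half-site at 218 bases and an E-box at 4 bases before the start, and a GC box from base 15 of the transcript. No marked motif overlaps another in these windows. Of all 32851 windows of this length, 35.7% hold a GC box, 13.6% a TATA box, 7.15% an E-box and 16.3% a half-site. A direct repeat of the half-site with 1 base between, a textbook form of the element bound by PPAR receptors, is in 0.0396% of them and in none of the windows of these genes. Matches of letters are a description of the sequence.

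For each of the lower genes, the 3 other tested genes nearest in profile were sought by the root-mean-square difference of log2(TPM + 1), centred on the mean over the 8 libraries. Nearest to Apoe were Gstm1, a glutathione transferase gene, at 0.149, and Atf5, a stress-responsive transcription factor gene, at 0.228. Next came Slc2a2, a glucose transporter gene from the beta-cell list above, at 0.233. Apoe itself varied by 0.731 around its mean. Nearest to Lpl, which varied by 0.476, were Cbarp at 0.0860, Rasgrf1 at 0.102 and the mitochondrial chaperone gene Hspa9 at 0.111. Nearest to Pnpla2, which varied by 0.332, were Ppp2r5e at 0.0301, Syncrip at 0.0307 and Arih1 at 0.0320. Nearest to Pparg, which varied by 0.244, were Ube4b at 0.0407, Sars at 0.0544 and Tti1 at 0.0598. Libraries and the common downward shift are shared by all of these genes.

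Around the 10 genes, 103 other lipid genes in 6 lists were followed, of which 102 had a row and 54 were tested. Of these 54, 14 were lower, 1 was higher and 39 did not pass, with a median log2 fold change of -0.28 beside -0.26 for all tested genes and with 25.9% called lower beside the background of 23.9%. After median-of-ratios scaling limma called 0 lower and 3 higher (15 at an unadjusted p under 0.05 in either direction), and their median was -0.03. Without any 1 library other than weight-cycled replicate 1 or obese replicate 4, limma called 0 of them, with 19 to 22 at an unadjusted p under 0.05. Ddhd2, counted among the 14, averaged under 1 TPM in weight-cycled islets and reached the tested level through the obese libraries. The count of 14 is therefore a description.

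Among 7 tested genes of lipoproteins and lipid efflux, 2 were lower and 1 was higher, where 23.9% of all tested genes were lower and 1.21% higher. Apoa2, which encodes an apolipoprotein of high-density lipoprotein, was at 7.70, 8.66, 6.46 and 8.54 TPM in weight-cycled and 4.58, 4.91, 6.51 and 4.38 TPM in obese replicates 1 to 4, and rose by 0.54 on the log2 scale (SE 0.130, limma adjusted p = 0.0325). It was higher under each of the 3 rescalings too, with log2 fold changes of 0.83, 0.79 and 0.63. It did not pass in 6 of the 8 fits that left out 1 library (limma adjusted p = 0.0605 to 0.109), those without weight-cycled replicate 1 or obese replicate 4 being the others, nor without a filter on low values (0.0924). Abca1, the cholesterol efflux transporter gene, was at 2.52, 0.940, 0.908 and 0.857 TPM in weight-cycled and 2.38, 2.59, 2.01 and 2.33 TPM in obese replicates 1 to 4, so that weight-cycled replicate 1 lay among the obese values. Its log2 fold change was -0.58 (SE 0.187, limma adjusted p = 0.0447), and -0.80 without that library. It did not pass without any 1 of the other 7 libraries (limma adjusted p = 0.0620 to 0.123), and after length correction it was at -0.13 (limma adjusted p = 0.440). Apod, which encodes another lipid-binding apolipoprotein, changed by -0.29 (limma adjusted p = 0.0465).

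Against 23.9% of all tested genes, 1 of 8 tested receptors and lipase partners was lower. This was Sort1, the sortilin gene, whose product sorts lipoprotein lipase and other cargo, at 4.35 ± 1.39 TPM in weight-cycled and 6.99 ± 0.945 TPM in obese islets (SD, n = 4 each; log2 fold change -0.60, limma adjusted p = 0.0357). Lsr, a lipolysis-stimulated lipoprotein receptor gene, did not pass (log2 fold change -0.24, limma adjusted p = 0.0764), and did without weight-cycled replicate 1 (-0.28, limma adjusted p = 0.0265). In that fit 54.4% of all tested genes were called lower and their median was -0.32. Lsr was at 0.10 there after median-of-ratios scaling. Lmf1, which encodes the factor that matures lipases in the endoplasmic reticulum, was at 5.82 ± 0.288 TPM in weight-cycled and 5.20 ± 0.798 TPM in obese islets. Its log2 fold change of 0.15 did not pass (limma adjusted p = 0.294), while 0.43 after median-of-ratios scaling did (limma adjusted p = 0.0411), as did Fabp5, a fatty acid binding protein gene, at 0.41 (limma adjusted p = 0.0436). Lmf1 and Fabp5 were named after their values were seen.

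Of 12 lipolysis regulators and other lipases, 5 were lower (41.7%, beside 23.9% of all tested genes) and 7 did not pass. The lower ones were Prkacb at -0.64 and Prkaca at -0.58, catalytic subunit genes of protein kinase A, which activates lipolysis, Pde3b at -0.55, a phosphodiesterase gene that opposes this kinase, Ddhd2 at -0.40, a triglyceride hydrolase gene, and Abhd12 at -0.28 (limma adjusted p = 0.0347 to 0.0460). Ddhd2 averaged 0.961 TPM in weight-cycled and 1.6 TPM in obese islets, and reached the tested level through the obese libraries. The count of 5 in this list is therefore a description. After median-of-ratios scaling, quantile scaling or length correction, 0 of the 12 were lower, where 0.566% to 1.53% of all tested genes were. Abhd5, the activator of adipose triglyceride lipase, was at 4.87 ± 0.332 TPM in weight-cycled and 5.12 ± 0.155 TPM in obese islets and did not pass (log2 fold change -0.06, limma adjusted p = 0.594). Prkaca, Abhd12 and Abhd5, like the cell type markers above and below and Agpat2 and Agpat5, were named after their values were seen.

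The remaining lists had 12.5%, 30.0% and 22.2% of their tested genes called lower, in the order below, where 23.9% of all tested genes were. Of 8 tested genes of the lipid droplet coat and its assembly, 1 was lower, Rab18, a droplet-associated GTPase gene, at -0.29 (limma adjusted p = 0.0453), which turned to 0.03 after median-of-ratios scaling. Pcyt1a, of phosphatidylcholine synthesis, at -0.47, and Hsd17b11, at -0.33, did not pass (limma adjusted p = 0.0561 and 0.0690). The perilipin genes Plin1 and Plin5 reached at most 0.133 and 0.0163 TPM in any library and Plin4 was listed at 0 in all, so that Plin2 and Plin3 were the perilipin genes with a level above these. Of 10 tested genes of triglyceride and sterol ester synthesis, 3 were lower, the acyltransferase genes Agpat1 at -0.47, Gpat4 at -0.42 and Agpat3 at -0.34 (limma adjusted p = 0.0367 to 0.0417). Agpat2 at -0.21 and Agpat5 at -0.04, acyltransferase genes of the same list, did not pass (limma adjusted p = 0.178 and 0.764). Of 9 nuclear receptors and partners, 2 were lower, the corepressor gene Ncor1 at -0.51 and the liver X receptor gene Nr1h2 at -0.54 (limma adjusted p = 0.0345 and 0.0435). Rxra, the partner receptor of Pparg, was at -0.38 and did not pass (limma adjusted p = 0.0522).

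**Figure D3:**
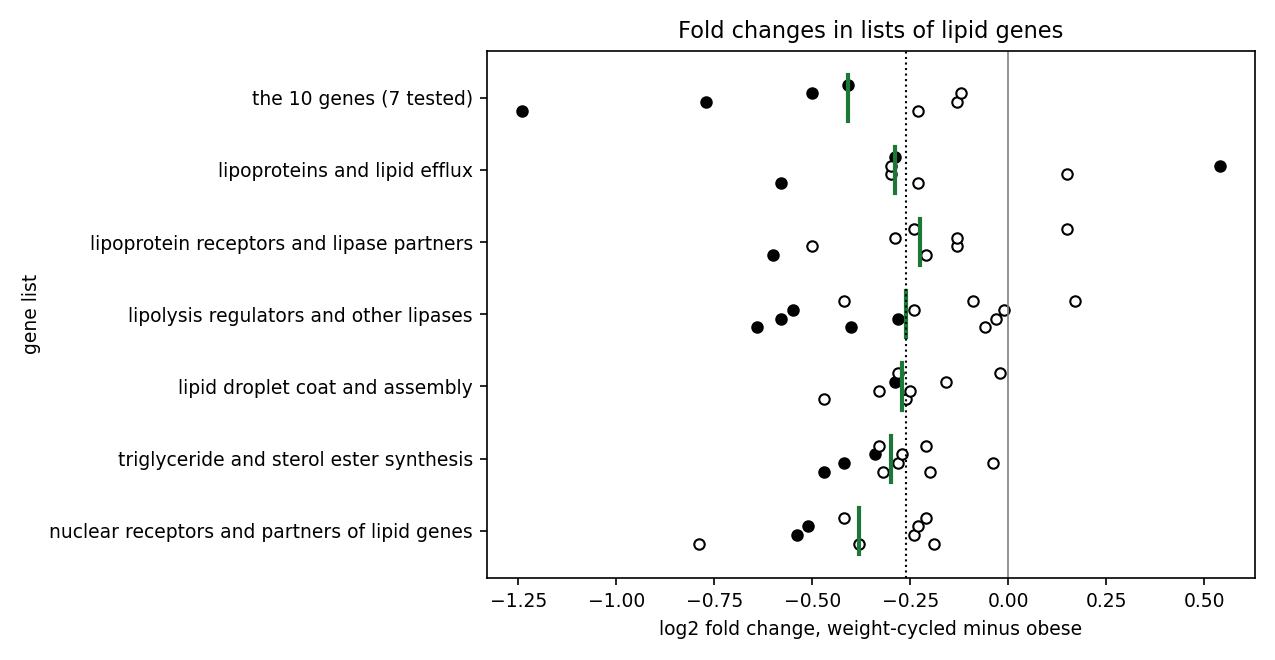
Log2 fold change, weight-cycled minus obese, of each tested gene in the 10-gene set and in 6 lists of other lipid genes. Filled points passed limma's adjusted p of 0.05, green bars are list medians, and the dotted line is the median of all tested genes at -0.26. Medians of the 6 other lists lie between -0.38 and -0.22.

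Markers of other cells were read beside these genes, since Apoe, Lpl and Pparg are also expressed by macrophages and Lpl and Pparg by adipocytes. The 9 macrophage markers summed to between 43.0 and 53.9 TPM in weight-cycled and between 56.4 and 71.3 TPM in obese libraries, ranges that did not overlap. Of single tested genes, 21.1% lay apart in this direction. C1qa, the largest part of the macrophage sum, was at 30.7 ± 4.81 TPM in weight-cycled and 35.2 ± 1.88 TPM in obese islets (SD, n = 4 each). Its groups overlapped and it did not pass (log2 fold change -0.20, limma adjusted p = 0.157). Of 6 tested macrophage markers, 3 were lower, Lyz2 at -0.74, Ctss at -0.60 and Tyrobp at -0.47 (limma adjusted p = 0.0303 to 0.0437), where 23.9% of all tested genes were. After median-of-ratios scaling 0 were. The 8 endothelial markers summed to between 28.6 and 59.3 TPM in weight-cycled and between 51.8 and 85.2 TPM in obese libraries. Of 7 tested, 2 were lower, Esm1 at -0.80 and Kdr at -0.56 (limma adjusted p = 0.0277 and 0.0470). This is 28.6%, near the 23.9% of all tested genes. After each of the 3 rescalings 1 of the 7 was lower, where 0.566% to 1.53% of all tested genes were. The 8 stellate and stromal markers summed to between 6.82 and 15.4 TPM in weight-cycled and between 10.8 and 15.2 TPM in obese libraries. The part of these cells in the lower levels of Apoe, Lpl and Pparg was not tested.

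Of 8 adipocyte markers, Adipoq, Cfd, Lep and Adrb3 were at 0 in every library, and Retn, Plin1 and Cidec reached at most 0.0136, 0.133 and 0.153 TPM. Fabp4, which capillary endothelium also expresses, made up nearly all of the list's sum, which was 5.30 to 11.3 TPM in weight-cycled and 6.63 to 10.6 TPM in obese libraries. Of the other lists, acinar markers summed to between 3226 and 7520 TPM in weight-cycled and between 2570 and 4792 TPM in obese libraries, and duct markers to between 31.7 and 50.3 TPM in weight-cycled and between 35.0 and 44.3 TPM in obese libraries. Of 2 tested duct markers, 1 was lower, Krt7 at -0.42 (limma adjusted p = 0.0382), where 23.9% of all tested genes were. The other, Spp1, was at 0.52 and did not pass (limma adjusted p = 0.0615). The alpha-cell list, led by Gcg, summed to between 3124 and 8526 TPM in weight-cycled and between 4565 and 12317 TPM in obese libraries. Of its 6 markers 2 were higher, Ttr at 0.63 and Gc at 0.82 (limma adjusted p = 0.0337 and 0.0353), where 1.21% of all tested genes were. The delta- and PP-cell list summed to between 5522 and 9771 TPM in weight-cycled and between 4944 and 12021 TPM in obese libraries.

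**Figure D4:**
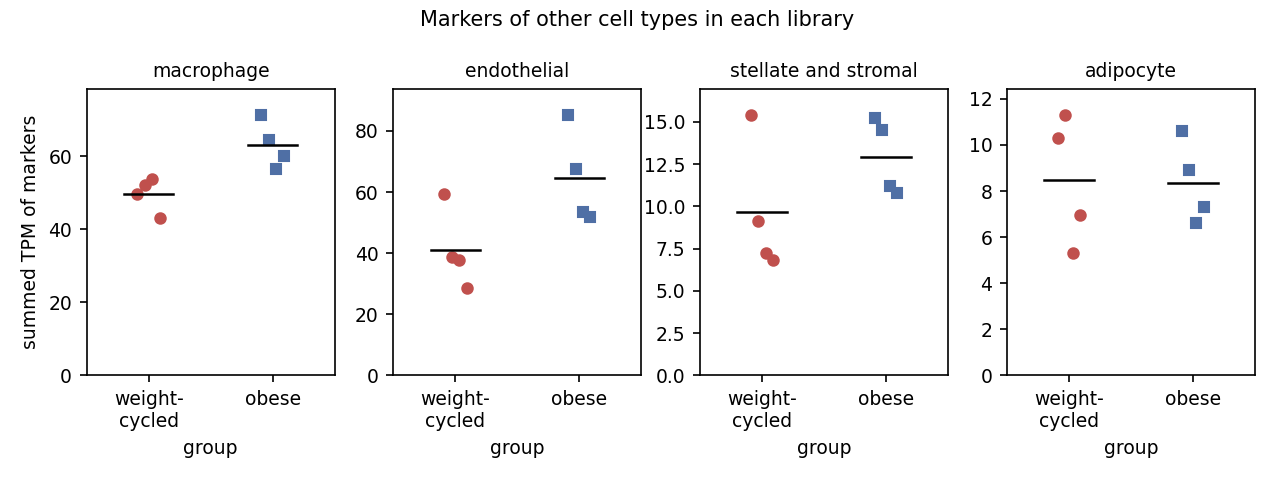
Summed TPM of macrophage, endothelial, stellate and stromal, and adipocyte markers in each library, with group means as bars and axes from 0. The macrophage sums of the groups do not overlap, at 43.0 to 53.9 TPM in weight-cycled and 56.4 to 71.3 TPM in obese libraries.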

How the data were processed

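The deposited table gives 1 TPM value per gene and library, which the authors computed using Salmon 1.5.2 (build mm10), as the submitters' processing notes list. Neither the annotation nor the way transcripts were summed to genes is stated in these notes. Columns summed to between 999930 and 999949 TPM, so depth is unknown. Symbols were found for 35527 of 35596 gene identifiers (99.8%), and coordinates are from GENCODE M21 on GRCm38, the assembly named mm10.

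Genes with a mean of at least 1 TPM entered a limma fit (version 3.58.1, R 4.3.3; trended variance, no covariate) of log2(TPM + 1). Tests were two-sided, and p-values were Benjamini-Hochberg adjusted over every tested gene. Named were the 10 genes, the 3 smallest p-values of each other list and the 3 nearest profiles of each called gene; 1 gene that this rule names is not reported here. The genes and lists were chosen with earlier results of these data known. The fit was first checked on simulated data. Alternatives were other pseudocounts, filters and scalings, a loess (span 0.5) on transcript length, the replicate number as a block, and leaving out each library. Fits that combined scaling or length correction with leaving out weight-cycled replicate 1, and a filter at 0.1 TPM, were chosen after seeing the data.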

Additional observations from a re-analysis of the deposited data

Results flagged for a closer look

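In 88 groups of reported values, a single library set off by a wide gap, relative to its group's range, was sought, and 3 were found where chance gives about 4.4. For Abca1, weight-cycled replicate 1 held 2.52 TPM, where weight-cycled replicates 2 to 4 held 0.857 to 0.940 TPM. Summed acinar markers reached 7520 TPM in weight-cycled replicate 1 and 3226 to 3699 TPM in weight-cycled replicates 2 to 4. The ratio of Lpl to Gpihbp1 stood at 1.38 in obese replicate 1 and at 0.815 to 0.863 in obese replicates 2 to 4.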

How the results depend on the processing

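Counts of genes called are given as lower and higher in weight-cycled islets, over all tested genes, the 10 genes, and the other lipid genes. With all 8 libraries as deposited they were 1946 and 98, 4 and 0, and 14 and 1. No filter on low values gave 0 and 0 (5686 at an unadjusted p under 0.05), 0 and 0 (4), and 0 and 0 (30) among 19482 genes tested. A filter at a mean of 5 TPM gave 1001 and 79, 1 and 0 (Apoe alone was tested), and 8 and 1, and a filter at 0.1 TPM gave 751 and 80, 2 and 0, and 2 and 1. Median-of-ratios scaling gave 46 and 101, 1 and 0, and 0 and 3. Quantile scaling gave 124 and 173, 1 and 0, and 0 and 3. Removal of the length trend gave 124 and 145, 1 and 0, and 0 and 2. Without weight-cycled replicate 1, median-of-ratios scaling gave 1444 and 1609, 3 and 0, and 13 and 7, and removal of the length trend 1087 and 1031, 3 and 0, and 7 and 5. Leaving out single libraries gave 0 to 4390 lower and 0 to 270 higher genes, 0 to 5 lower and 0 higher of the 10, and 0 to 34 lower and 0 to 1 higher of the other lipid genes. The lowest count over all genes, 0, came from leaving out obese replicate 1, where 2670 genes had an unadjusted p under 0.05, and the highest from leaving out weight-cycled replicate 1. The cause of these shifts was not tested.

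With the replicate number as a block the counts were 2754 and 149, 4 and 0, and 19 and 1, and with the block and length correction together 137 and 203, 2 and 0 (Apoe and Lpl), and 0 and 2. The labels do not say whether the numbers pair the libraries. Deviations of same-numbered libraries correlated at -0.276 to 0.231 over 4 pairs, and 0 of 4 weight-cycled libraries correlated best with the obese library of its own number. With 4 pairs this cannot exclude a pairing.

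Direction turned for a few values, none of which passed. Mgll was at 0.04 after quantile scaling and 0.05 after length correction, with or without the block. Plin2 was at 0.13 after median-of-ratios scaling, 0.15 after quantile scaling and 0.01 after length correction, with or without the block, and at 0.16 and 0.00 after the first and last of these without weight-cycled replicate 1. Dgat1 was at 0.09, 0.15 and 0.13, the last also with the block, and at 0.15 and 0.20. Lsr was at 0.07 after median-of-ratios scaling, 0.03 after length correction, with or without the block, and 0.10 and 0.05 without weight-cycled replicate 1. Rab18 was at 0.03 after median-of-ratios scaling and 0.08 without that library, and Ube4b at 0.01 after length correction without it. Pseudocounts of 0.1 and 5 kept all 4 calls among the 10 genes. Unknown depth limits what can be said of Lipe, Plin3 and Dgat2, which lay under 1 TPM.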
